A study of Mus musculus with 6 samples.

Results

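A set of 9 genes of glycogen synthesis and breakdown was followed in mouse embryonic stem cells without glycogen synthase kinase-3 (genotype Gsk-3a-/-; Gsk-3b-/-, here DKO) and in wild-type cells of the line E14K. The genes are Ugp2, Gys1, Gbe1, Pygb, Pygl, Ppp1r3b, Ppp1r3c, Ppp1r3d and Epm2a. They were taken with every probe set, a group of short oligonucleotides read out as 1 value, that the platform annotation assigned to exactly 1 gene of this list. This gave 16 probe sets for the 9 genes, of 34958 single-gene probe sets on an Affymetrix mouse array. Total RNA of 3 samples per genotype was hybridised, 1 array each. Both genotypes were grown alike, without feeder cells on gelatin, in serum medium with leukaemia inhibitory factor. Neither separate cultures for the replicates nor the number of DKO clones is given in the labels. The p-values therefore measure the spread between these samples alone, and effects of the loss of Gsk-3 and other differences between the lines cannot be told apart.

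Glycogen is the branched glucose store of animal cells. UDP-glucose is added to a growing chain by glycogen synthase, a branching enzyme forms the side chains, and glycogen phosphorylase releases glucose units again. Gsk-3 carries its name because it phosphorylates glycogen synthase and lowers its activity; protein phosphatase 1 (PP1), brought to glycogen by targeting subunits, removes such phosphates. That control acts on the protein, whereas the arrays measured RNA.

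The log2 difference, DKO minus wild-type, was 1.54 for the phosphorylase Pygl and -0.73 for the branching enzyme Gbe1. For Ppp1r3b, a subunit that brings PP1 to glycogen, the DKO arrays were on average at least 2.14-fold above the wild-type arrays. This is a limit on the means because its wild-type arrays were too dim to give a level, and it leaves out the spread between arrays. The log2 difference was 0.07 to 0.36 for the 7 tested probe sets of Ugp2, Gys1 and Pygb, and Ppp1r3c, Ppp1r3d and Epm2a were too dim for the main test. Values are log2 of the intensities that the authors deposited as whole numbers. A probe set was tested if it reached a log2 value of 4 (intensity 16) on at least 3 of the 6 arrays, whatever the genotype, and passed if its limma adjusted p was under 0.05. Of the 16 probe sets 10 were tested, for 6 of the 9 genes: Ugp2, Gys1, Gbe1, Pygb, Pygl and Ppp1r3b. By limma 0 of these 10 probe sets passed, where 3.24% of all 20841 tested probe sets did, and 2 had an unadjusted p under 0.05 (Pygl and Ppp1r3b), where 13% of all tested probe sets did. With the replicate number in the model as a block, so that arrays are compared within each number, 2 of 10 passed, again Pygl and Ppp1r3b and both higher in DKO, against 9.57% of all tested probe sets passing in either direction and 4.31% passing higher. Ppp1r3b met the filter through its DKO arrays alone and so had to differ to be tested, so its part of both counts is no support. With so few probe sets these shares are a description only. The plot of log2 intensities on each array shows all 16 probe sets.

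**Figure D1:**
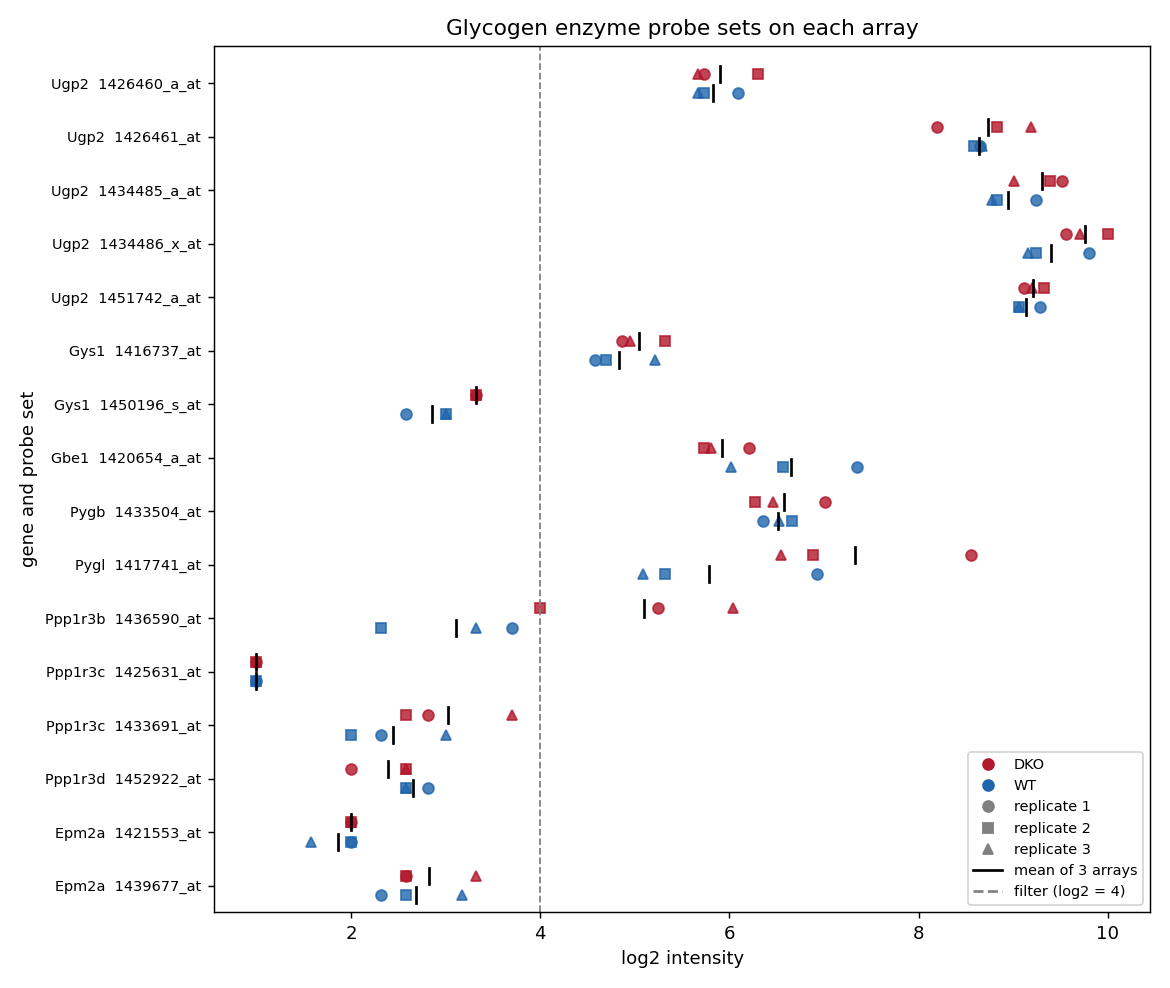
Log2 intensity (horizontal axis) of the 16 probe sets of the 9 genes on each of 6 arrays, DKO in red above wild-type (WT) in blue, with 1 marker shape per replicate number, black ticks at the mean of 3 arrays and the dashed line at the filter of 4. The 3 DKO values of Ppp1r3b lie at or right of the filter and its 3 wild-type values left of it; both probe sets of Ppp1r3c and of Epm2a lie left of it on every array.

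The arrays and cells had the following properties. Median intensities were 10 or 11 on every array. Spike-in control transcripts had a mean log2 intensity of 9.84 on the DKO array and 10.2 on the wild-type array of replicate 3, against 1.68 to 1.83 on the other 4 arrays, so replicate 3 of both genotypes was also set apart from the other arrays as a block (the spike-in block). Signal at the 3′ over the 5′ end of 3 control transcripts was 2.20 ± 0.32 log2 units for DKO arrays and 1.98 ± 0.33 for wild-type arrays (mean ± SD, n = 3), with overlapping arrays. Of 9 embryonic stem cell markers all 9 were tested, and by limma 0 passed and 0 had an unadjusted p under 0.05. Of 7 fibroblast markers Col3a1 and Postn lay under the filter on all arrays and 3 were tested, of which 0 passed and 1 had an unadjusted p under 0.05. That 1 was Col1a1, a collagen, lower in DKO by a log2 difference of -1.34 (adjusted p = 0.0805), which passed with the replicate block (adjusted p = 0.00506). The other tested fibroblast markers, Col1a2 and Thy1, read higher in DKO, by 0.75 (adjusted p = 0.558) and 0.44 (adjusted p = 0.792). The log2 of the summed intensity of the 7 fibroblast markers was 7.61 to 8.13 in DKO and 7.78 to 8.79 in wild-type cells. Hepatocyte markers (Apoa1, Ttr, Fgb, Afp and Alb) and 6 skeletal muscle markers lay under the filter on all arrays. In bulk RNA, fewer cells of a type and less RNA per cell cannot be told apart. The targeted gene Gsk3a read 7.18, 7.08 and 6.04 in DKO against 8.65, 7.89 and 7.90 in wild-type cells (difference -1.38, adjusted p = 0.0942; 0.00646 with the replicate block). The brightest of 5 tested Gsk3b probe sets was at 10.40 ± 0.23 for DKO and 10.61 ± 0.08 for wild-type arrays (mean ± SD, n = 3, adjusted p = 0.832). All 5 read lower in DKO, by differences of -0.71 to -0.02, and none passed with or without the replicate block. Whether these probe sets fall in the deleted sequence is not known here, so they may not check the labels.

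Promoter sequence was available for 8 of the 9 genes, all but Ppp1r3b, from RefSeq (GRCm38.p6). In 9 windows of 250 bases upstream of the annotated starts (Ugp2 has 2), the observed number of CpG dinucleotides over that given by the C and G content was 0.53 to 1.12, against a median of 0.37 over 32851 promoter windows. The letters CTTTGAA and CTTTGAT, to which Tcf/Lef factors of the Wnt pathway bind, were searched on both strands; since they differ in the last letter they do not match the same place of a strand. At least 1 of them occurred in 7.48% of all windows and in 1 of the 9 here, that of Ppp1r3c. This match is a description of the letters in these windows. The windows of 3 genes are shown 5′ to 3′ because they belong to the phosphorylase with the largest difference (Pygl), to the only tested gene whose brightest probe set read lower in DKO (Gbe1), and to the gene with the match (Ppp1r3c). Capitals mark CpG in the first and second and CTTTGAT in the last, which holds it in 2 places. They lie at chr12:70227684-70227933 (minus strand, 20 CpG), chr16:70313699-70313948 (plus strand, 9 CpG) and chr19:36736605-36736854 (minus strand).
Pygl: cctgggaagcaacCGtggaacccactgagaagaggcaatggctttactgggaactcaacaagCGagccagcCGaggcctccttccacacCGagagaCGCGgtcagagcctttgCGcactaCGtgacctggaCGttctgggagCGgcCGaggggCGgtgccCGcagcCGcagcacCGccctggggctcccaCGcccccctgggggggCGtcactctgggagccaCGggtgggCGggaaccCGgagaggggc
Gbe1: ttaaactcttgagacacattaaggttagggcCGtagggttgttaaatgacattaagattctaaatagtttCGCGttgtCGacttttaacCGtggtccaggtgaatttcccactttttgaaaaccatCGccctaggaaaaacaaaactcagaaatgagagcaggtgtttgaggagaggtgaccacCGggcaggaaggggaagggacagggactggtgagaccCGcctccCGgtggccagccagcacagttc
Ppp1r3c: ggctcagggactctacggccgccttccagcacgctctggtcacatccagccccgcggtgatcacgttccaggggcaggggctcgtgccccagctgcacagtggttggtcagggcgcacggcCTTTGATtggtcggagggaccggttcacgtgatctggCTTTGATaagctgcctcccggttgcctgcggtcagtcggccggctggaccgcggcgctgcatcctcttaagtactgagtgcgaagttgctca

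Of the synthesis branch, Ugp2, Gys1 and Gbe1 were tested, and none passed with or without the replicate block. Ugp2 encodes UDP-glucose pyrophosphorylase, which makes the UDP-glucose that is built into glycogen. Its brightest probe set (1434486_x_at) had intensities of 756, 1024 and 830 in DKO and 890, 605 and 571 in wild-type cells. The wild-type value of replicate 1 lies among the DKO values, so the genotypes overlapped. The log2 difference was 0.35 (SE 0.27, 95% interval -0.25 to 0.96, adjusted p = 0.701). Probe set 1434485_a_at had 727, 670 and 516 in DKO and 604, 455 and 436 in wild-type cells, with a difference of 0.36 (adjusted p = 0.678) and a positive difference in each of the 3 same-numbered pairs. The other 3 probe sets of Ugp2 differed by 0.07 (1426460_a_at), 0.10 (1426461_at) and 0.08 (1451742_a_at), with adjusted p-values of 0.963, 0.948 and 0.95. All 5 probe sets overlapped between the genotypes. On 1426461_at the 3 wild-type arrays were close together (403, 384 and 406) and the 3 DKO arrays lay on both sides of them (292, 456 and 583).

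Gys1 encodes the glycogen synthase of muscle and most other tissues, the enzyme that Gsk-3 phosphorylates. Its tested probe set (1416737_at) was dim, with 29, 40 and 31 in DKO and 24, 26 and 37 in wild-type cells. The highest wild-type array lay above 2 of the DKO arrays. The log2 difference was 0.21 (SE 0.27, 95% interval -0.39 to 0.81, adjusted p = 0.855). The other Gys1 probe set (1450196_s_at) did not meet the filter. It read 10 on each DKO array and 6, 8 and 8 on the wild-type arrays. All of these lie under the filter, where 1 unit of rounding is a large part of the value.

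Gbe1, the glycogen branching enzyme, had 74, 53 and 56 in DKO and 163, 95 and 65 in wild-type cells. Replicate 1 was the highest array in both genotypes, and the highest DKO value lay above the lowest wild-type value. Each DKO array was below the wild-type array of its number, by log2 differences of -1.14, -0.84 and -0.22. The fitted difference was -0.73 (SE 0.35, 95% interval -1.52 to 0.06) and did not pass (adjusted p = 0.433; 0.09 with the replicate block). It averaged -0.99 over replicates 1 and 2, against -0.22 in replicate 3. Without wild-type replicate 1 it was -0.38, the smallest of 6 differences, each without 1 array.

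The phosphorylases release glucose from glycogen as glucose 1-phosphate; Pygb is named for brain and Pygl for liver, and both are also expressed elsewhere. Pygl had the larger difference of the pair. It read 375, 118 and 93 in DKO and 122, 40 and 34 in wild-type cells. Replicate 1 was well above the other arrays in both genotypes, and wild-type replicate 1 (122) lay above 2 of the DKO arrays, so the genotypes overlapped. Within a replicate number, the DKO array was higher by 1.62, 1.56 and 1.45 log2 units, which is close to the same step each time. The log2 means were 7.32 ± 1.08 for DKO and 5.78 ± 1.00 for wild-type arrays (SD, n = 3), and the fitted difference was 1.54, or 2.92-fold (SE 0.61, 95% interval 0.17 to 2.92). It did not pass (adjusted p = 0.303). When the replicate number was a block the difference was the same, its SE was 0.20 (95% interval 1.09 to 2.00) and it passed (adjusted p = 0.00122). Without DKO replicate 1 the unpaired difference was 0.93, and without wild-type replicate 1 it was 2.12.

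Primitive endoderm markers were set beside Pygl because such cells can arise in stem cell cultures. Of 7 tested markers 0 passed by limma, and none of the 7 was under the filter on all arrays of a genotype. The 2 with an unadjusted p under 0.05 were Foxa2, at 1.26, and Dab2, at -1.45 (adjusted p = 0.33 and 0.305). Of all tested probe sets 13% had such a p. Gata4, Gata6, Sox17 and Pdgfra also read higher in DKO, and Sox7 lower. The log2 of the summed intensity of the 7 markers ran from 11.53 to 12.42 in DKO and from 10.40 to 12.09 in wild-type cells. In replicates 1, 2 and 3 this sum was 11.69, 11.53 and 12.42 in DKO and 12.09, 11.84 and 10.40 in wild-type cells. In wild-type cells it had the same order as Pygl over the 3 arrays, whereas the DKO array with the highest sum, replicate 3, had the lowest Pygl value of the DKO arrays. Its part in the Pygl values was not tested.

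The difference of Pygb was small. It read 129, 77 and 88 in DKO and 82, 101 and 92 in wild-type cells. DKO replicate 1 was the highest array, and the other 2 DKO arrays lay below the middle wild-type array. The log2 difference was 0.07 (SE 0.27, 95% interval -0.54 to 0.67, adjusted p = 0.966). Whether the differences of Pygl and Pygb differ from each other was not tested. Of the astrocyte markers, which were set beside this gene of brain, Gfap, S100b and Aqp4 lay under the filter on all arrays. Aldh1l1 was the 1 of 2 tested that passed, higher in DKO by 1.84 (adjusted p = 0.00358). The other, Slc1a3, was the brighter of the 2 and had a difference of -0.01 (adjusted p = 0.997). Of all tested probe sets 3.24% passed, and with 2 markers the count is a description only.

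**Figure D2:**
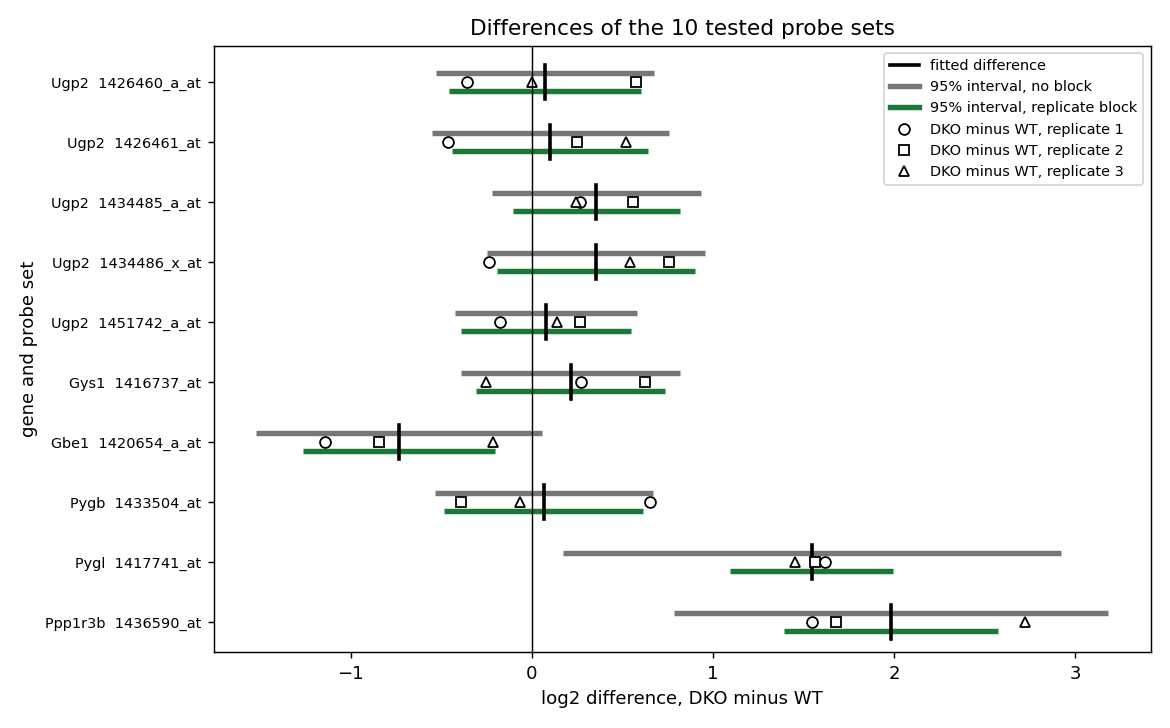
Log2 difference, DKO minus wild-type (horizontal axis), of the 10 tested probe sets: the fitted difference as a black tick, its 95% interval without a block in grey and with the replicate number as a block in green, and the 3 same-numbered differences as open markers. Pygl has 3 almost equal differences (1.62, 1.56 and 1.45) and a narrower interval with the block; the intervals of Ugp2, Gys1 and Pygb include 0 in both fits.

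The PP1 targeting subunits bind both the phosphatase and glycogen, and in this way bring the phosphatase to synthase and phosphorylase. Ppp1r3b, known as the subunit of liver glycogen, was the only one of the listed subunits with a tested probe set. It had 38, 16 and 66 in DKO and 13, 5 and 10 in wild-type cells. Every DKO array lay above every wild-type array, which held for 1 of the 10 tested probe sets, where 16.7% of all tested probe sets did not overlap in either direction. The probe set passed the filter through its DKO arrays alone, 1 of them exactly at the limit. A probe set that passes in this way cannot overlap between the genotypes. The separation was therefore fixed by the selection, and its count beside the share of all probe sets is no support. The fitted log2 difference was 1.98 (SE 0.53, 95% interval 0.79 to 3.18). Since all wild-type arrays were under the filter, only a limit can be given for the means: DKO was on average at least 2.14-fold higher. This limit sets the wild-type arrays to the filter and carries no sampling error.

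The Ppp1r3b difference did not pass (adjusted p = 0.099). Its adjusted p was 0.00134 with the replicate block and 0.0418 with the spike-in block, where 1 of the 10 probe sets, this one, was under the threshold against 5.36% of all tested probe sets. Since the selection required a difference, these p-values are a description and no support for it. In the limma fit with no filter, and so without that selection, the adjusted p was 0.412. It was 0.254 over replicates 1 and 2 alone and 0.182 on the scale of log2(intensity + 16). Over the fits without 1 array it ran from 0.044 to 0.352. The log2 difference was 1.55, 1.68 and 2.72 in replicates 1, 2 and 3. On the scale of log2(intensity + 16) the fitted difference was 1.05, since both genotypes are dim.

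The remaining regulators were at the low end of the arrays. Ppp1r3c, a subunit also called protein targeting to glycogen, had 1 probe set (1425631_at) at 2 on all 6 arrays. Its other probe set (1433691_at) read 7, 6 and 13 in DKO and 5, 4 and 8 in wild-type cells, all under the filter, with the DKO array higher in each numbered pair. Ppp1r3d, another targeting subunit, read 4, 6 and 6 in DKO and 7, 6 and 6 in wild-type cells. Epm2a encodes laforin, a phosphatase that removes phosphate from glycogen itself. Its probe sets read 4, 4 and 4 in DKO against 4, 4 and 3 in wild-type cells (1421553_at), and 6, 6 and 10 in DKO against 5, 6 and 9 in wild-type cells (1439677_at). None of these probe sets met the filter, and a transcript present at a low level was not detectable at these intensities. In an alternative fit with no filter all 16 probe sets were tested and 0 passed. By gene that was 0 of 9, against 247 of 18193 over all tested genes.

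Of the 10 tested probe sets, 4 (1434485_a_at of Ugp2 and those of Gbe1, Pygl and Ppp1r3b) had the same sign in all 3 numbered pairs, and 41.8% of all tested probe sets did so.

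The wider pathway was examined in 6 lists of 69 other genes, of which 64 had a single-gene probe set and 47 were tested, each by its brightest tested probe set. By limma 0 of the 47 genes passed, where 4.13% of 10496 tested genes did, and 7 of the 47 had an unadjusted p under 0.05, where 14.7% of all tested genes did. The median log2 difference of the 47 genes was 0.08, with 28 above and 19 below 0, against a median of -0.0025 over all tested genes. With the replicate block 5 of 47 passed, 2 higher and 3 lower; among all tested genes 10.7% passed with the block, 5.07% higher and 5.63% lower. Those that rose with the block were Nhlrc1 and Pgm2, and those that fell were Gyg, Ppp1r1a and Gsk3a. Gsk3a is a gene targeted in the DKO cells, so its part of these counts says nothing about the wider pathway. Gyg and Pgm2 were named after their values were seen.

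Gyg encodes glycogenin, the protein primer on which a new glycogen particle starts. Its brightest probe set (1459522_s_at) read 8.73, 8.49 and 8.25 log2 units in DKO and 9.79, 9.04 and 9.24 in wild-type cells, so the genotypes did not overlap. The difference was -0.87 (SE 0.28; adjusted p = 0.178, 0.0331 with the replicate block). The second probe set of Gyg (1448429_at) differed by -1.15 (adjusted p = 0.0505; 0.0087 with the replicate block). With the mean of its probe sets taken as the value of the gene, Gyg was the 1 gene of the 47 that passed, at -1.01 (adjusted p = 0.0365). That fit was adjusted over genes and not over probe sets, so its adjusted p is not on the same footing as those above. The share of all genes that passed in it is not given here, so the count is a description.

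Among the other genes of glycogen handling, Nhlrc1, the ubiquitin ligase malin that acts together with laforin, read 4.25, 3.91 and 4.58 in DKO and 2.81, 2.32 and 4 in wild-type cells. Of these, 1 DKO array and 2 wild-type arrays lay under the filter, and wild-type replicate 3 lay among the DKO values. The fitted difference of 1.20 (adjusted p = 0.222; 0.0136 with the replicate block) therefore rests on intensities too dim to give a level. With arrays under the filter set to it, the difference was 0.28. Pgm2, a gene of the phosphoglucomutase family, read 8.87, 8.32 and 8.73 in DKO and 7.88, 7.71 and 7.83 in wild-type cells. The genotypes did not overlap, and the difference was 0.84 (adjusted p = 0.13; 0.0335 with the replicate block). Of 8 tested genes in this list 6 were above 0, with a median of 0.20.

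All 5 genes of phosphorylase kinase, the complex that activates phosphorylase, were tested. None passed by limma with or without the replicate block, and 1 had an unadjusted p under 0.05 without it; their median difference was 0.43, with 4 above 0 and 1 below. Phkg1, a catalytic subunit, had the largest difference of the list (0.91, 95% interval -0.35 to 2.18, adjusted p = 0.597); 1 DKO and 2 wild-type arrays lay under the filter, and set to it they gave 0.63.

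Of 6 tested genes of PP1 catalytic subunits, other targeting subunits and inhibitors, Ppp1r1a differed most. It encodes inhibitor-1, which blocks PP1 when phosphorylated. It read 4.70, 5.86 and 6.61 in DKO and 7.76, 7.02 and 8.42 in wild-type cells. All DKO arrays lay below all wild-type arrays, by a fitted difference of -2.01 (SE 0.51; adjusted p = 0.0803, 0.00398 with the replicate block). The list as a whole had a median of -0.03, with 3 genes above and 3 below 0.

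The 18 tested kinases that phosphorylate glycogen synthase, and their subunits, had a median difference of -0.03. By their brightest probe sets, 0 apart from Gsk3a passed in the fit with the replicate block. A second probe set of Prkar1a (1425550_a_at), a regulatory subunit of protein kinase A, did pass with it, at 0.83 (adjusted p = 0.208; 0.03 with the replicate block), while the brightest one (1452032_at) differed by -0.11 (adjusted p = 0.935). Glucose transporters and hexokinases with related genes (5 tested, median 0.08) and genes of UDP-glucose and galactose use (5 tested, median 0.11) also had 0 that passed by limma, with or without the block, and 0 with an unadjusted p under 0.05 without it; the largest differences were those of Hk1, a hexokinase (0.80, adjusted p = 0.624), and Ugdh, which oxidises UDP-glucose (0.48, adjusted p = 0.485). The plot by gene list sets these differences side by side.

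**Figure D3:**
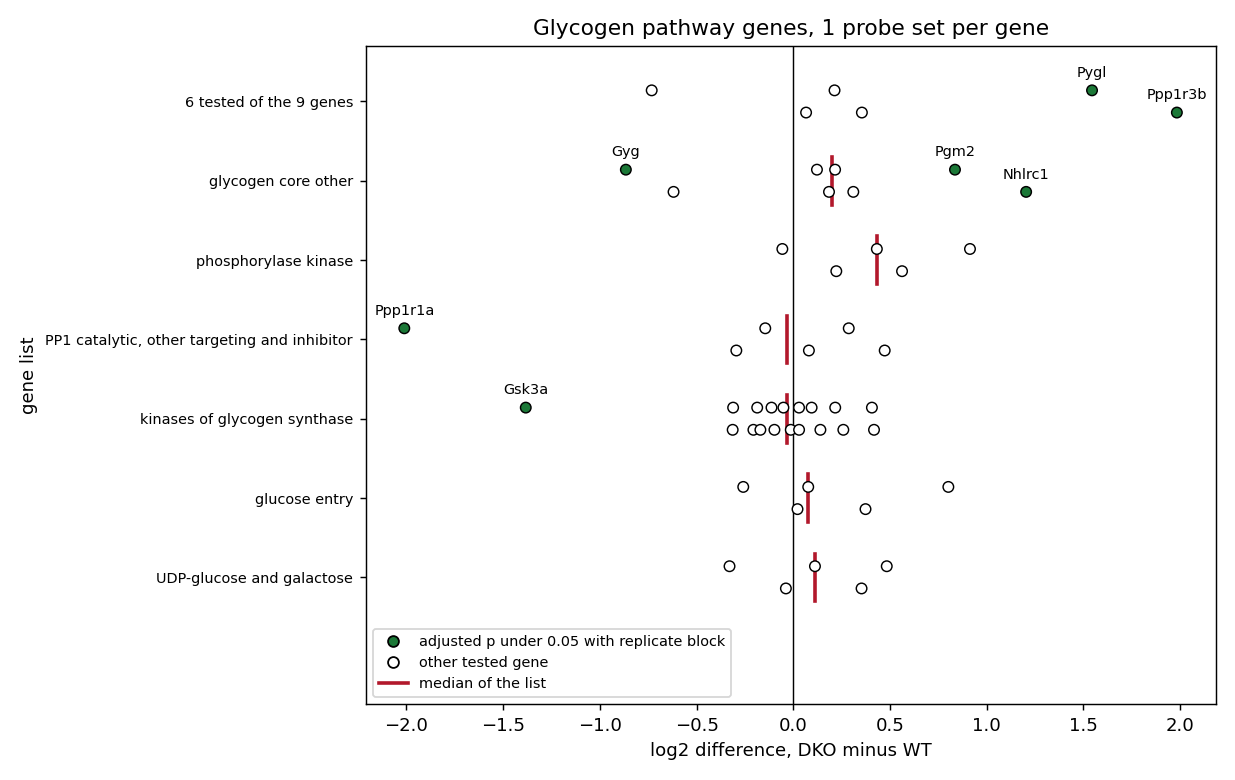
Log2 difference, DKO minus wild-type (horizontal axis), of the 6 tested genes of the 9 (top row) and of 47 other tested pathway genes by list, 1 probe set per gene, with red ticks at the list medians. Filled points had an adjusted p under 0.05 with the replicate number as a block: Pygl, Ppp1r3b, Nhlrc1 and Pgm2 above 0, and Gyg, Gsk3a and Ppp1r1a below 0. None passed without the block.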

How the data were processed

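The deposited table gives 1 intensity per probe set and array as whole numbers, without detection flags. Its scale is not stated and was taken as linear from the values; log2 was taken here without a pseudocount. Of tools, the submitters' processing notes list GCRMA 2.14.1, limma 2.16.5, R 2.8.0 and GCOS, with no role for any of them. Their genome build is not stated in these sources. Rounding makes low intensities coarse, and the number of arrays limits the precision.

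Groups and replicate numbers come from the sample titles. The 64 array controls and dim probe sets were left out of the tests. The genotypes were compared, 3 against 3 arrays, with lmFit and eBayes of limma 3.58.1 (two-sided; R 4.3.3), with Benjamini-Hochberg adjustment over 20841 probe sets. SE and 95% intervals are moderated. An exact permutation p cannot fall under 0.1 here and is not printed. A gene was represented by its brightest tested probe set. Symbols were updated by gene identifier through RefSeq, which held 34754 of the single-gene probe sets. The genes, lists and tests were chosen with earlier results of these data known. Named are all 9 genes with every probe set, Gsk3a and Gsk3b, every other pathway gene that passed and, in lists where none passed, at most the 1 gene with the largest difference. The fit without a block was run on simulated data with independent noise on each array, which does not cover the fits with a block.

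To check whether replicate numbers pair the samples, each array was centred on its genotype mean; arrays with the same number then correlated at 0.427, 0.354 and 0.595 over tested probe sets. Each is above 0.1, but so was DKO replicate 2 with wild-type replicate 1, at 0.113. Other pairs of different numbers ran down to -0.488. Centring on the mean of 3 arrays ties these values together and lowers those of different numbers when same-numbered arrays correlate. The check is therefore a description and does not settle whether the numbers pair the samples. What a number marks is not in the labels. The main model leaves the number out. Alternatives were this block, replicate 3 against the others as a block, replicates 1 and 2 alone, the filter, the normalization, a pseudocount, the moderation, the probe set of a gene and leaving out each array.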

Additional observations from a re-analysis of the deposited data

How the results depend on the processing

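The count of passing probe sets among the 10 was 0 without a block, 2 with the replicate block (Pygl and Ppp1r3b) and 1 with the spike-in block, which sets replicate 3 apart (Ppp1r3b); counted by gene it was likewise 0, 2 and 1. Leaving out each array gave 0 to 1, the 1 being Ppp1r3b without DKO replicate 2. The 47 other pathway genes had 5 with the replicate block and 3 with the spike-in block (Ppp1r1a, Nhlrc1 and Gsk3a, a targeted gene). They had 1 with the mean over probe sets (Gyg) and 0 to 1 without each array (Ppp1r1a without DKO replicate 3, Nhlrc1 without wild-type replicate 3). With no filter 64 other pathway genes were tested and 1 passed, against 247 of 18193 tested genes. That 1 was Uggt2, which did not meet the filter and is not among the 47. The count over all genes, 434, became 1123 with the replicate block, 687 with the spike-in block, 247 with no filter, 253 with the stricter filter (a log2 value of 6) and 184 to 374 without each array, with the low end at DKO replicate 1; other filters test other numbers of probe sets, and otherwise the cause was not tested. The replicate block changed no other call among the 10 probe sets, and as a balanced block it could not move a difference. Of 147 differences of single probe sets over 15 alternatives, 137 kept direction and call, 4 gained a call (Pygl once and Ppp1r3b, which had to differ to be tested, 3 times) and 6 changed sign, all 6 on Ugp2 or Pygb: Ugp2 1426461_at was -0.11 over replicates 1 and 2. Over the fits without each array this probe set ran from -0.12 to 0.38, Ugp2 1426460_a_at from -0.13 to 0.20 and Pygb from -0.15 to 0.22. Ppp1r3b, Gys1 1416737_at and Ugp2 1426460_a_at were not tested under the stricter filter. Ppp1r3c, Ppp1r3d and Epm2a lay too near background to be tested except in the fit with no filter, where 0 of the 16 probe sets passed.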
